A study of Mus musculus with 8 samples.

Results

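The 34 genes described here are known targets or regulators of p53, the transcription factor that halts or kills cells after DNA damage, and they were followed in mast cells in which Cas9 had cut the Mettl3 gene. They were taken by symbol from a list of p53 genes out of 56748 gene IDs in the count tables. All 34 had an ID, and 33 passed the filter on low counts that left 14942 genes to test. Bone marrow derived mast cells (BMMCs) were grown from C57BL/6 mice 6 to 8 weeks old by culture of whole bone marrow in IL-3 for at least 4 weeks. In the Mettl3-RNP group (4 libraries) the cells were electroporated with Cas9 ribonucleoproteins (RNPs), complexes of the nuclease with guide RNAs against Mettl3, the enzyme that writes most N6-methyladenosine (m6A) in mRNA. In the Pulsed group (4 libraries) the cells were mock transfected and met no Cas9. Cells of both groups were wild type before transfection and were left unstimulated, and poly-A RNA was sequenced.

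The groups limit what can be asked. No control cut another gene, so a response to Cas9 cutting in general and a response to the loss of Mettl3 cannot be told apart. The RNP cultures were edited pools that still held untargeted cells, and the time between electroporation and RNA extraction is not given in the sources used here. The label of the list, a response to cutting, was therefore taken as a question and not as a property of these genes. Both groups carried replicate numbers 1 to 4, and the 4 numbers stand for cultures of 4 mice as far as the series text tells, so libraries were compared within a number, called a pair below.

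p53 protein is made and destroyed continuously in unstressed cells, mostly through the ubiquitin ligase Mdm2. Breaks in DNA activate kinases that modify p53 and free it from Mdm2, and p53 then binds DNA as a tetramer and raises transcription of its targets. Because control acts mainly on the protein, the mRNA of Trp53 says little about p53 activity, while the mRNAs of targets such as Cdkn1a, Mdm2 and Ccng1 are the usual readout. The targets halt the cell cycle, prepare cell death, aid repair, shift metabolism, and feed back on p53 itself.

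The sequences at both ends of this question are the guides that direct the cut and the sites that p53 reads. The study lists 3 guides against mouse Mettl3, and which of them went into the sequenced cultures is not stated. Each is shown 5′ to 3′ on its own strand in GRCm39, with the PAM, the short motif that Cas9 needs beside its target, in capitals.
crRNA_Mettl3_1, chr14:52537803-52537822, plus strand, coding part of exon 2: cacgggactatcactacggaAGG
crRNA_Mettl3_2-HDR, chr14:52542420-52542439, minus strand, coding part of exon 1: ggacacgtggagctctatccAGG
crRNA_Mettl3_3-HDR, chr14:52542216-52542235, plus strand, within an intron: gatggggtaaccaacaatcgAGG
Coordinates cover the protospacer without the PAM. In the bodies of the 34 genes, the closest place beside an NGG PAM differed from each guide by 6 bases, so none of these genes held a near match.

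The p53 site consists of 2 half-sites of 10 bases, each with 3 purines, C, 2 bases that are A or T, G and 3 pyrimidines. The genome (GRCm39) was searched on both strands within 5000 bases of each gene's start for adjoining half-sites with at most 1 mismatch outside the C and G of the core. Such a site lay near 6 of the 34 genes (17.6%) against 368 of 21630 coding genes (1.70%). The sites follow on the strand of their gene, with the 4-base cores in capitals, to show which letters the search found near these genes.
Cdkn1a, chr17:29309902-29309921: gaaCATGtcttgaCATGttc
Ccng1, chr11:40646289-40646308: agaCCTGcccgggCAAGcct
Ccng1, chr11:40645763-40645782: acgCAAGcccgggCTAGtct
Zmat3, chr3:32418480-32418499: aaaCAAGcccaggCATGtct
Zmat3, chr3:32424300-32424319: gagCAAGtctgggCTTGtta
Tigar, chr6:127083149-127083168: gggCTTGtttagcCTTGccc
Gtse1, chr15:85744146-85744165: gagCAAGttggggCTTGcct
Bloc1s2, chr19:44136711-44136730: cagCATGcttagaCTTGtcc
The first Zmat3 site matched the motif exactly, and 43 of the 21630 coding genes (0.199%) had such a match. In RefSeq promoter windows (GRCm38.p6, 250 bases before to 50 after a start), which matched 28 of the 34 symbols, a site with at most 1 mismatch and half-sites up to 13 bases apart lay in 3 of 36 windows (8.33%), those of Ccng1, Cdkn1a and Gtse1. The share over all 32851 windows was 0.627%. A match is a run of letters and not a measured binding event, and a gene without one may be bound at a site of another form or place.

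Library totals lay between 32643260 and 45324826 counts. Mettl3 itself fell by 1.30 on the log2 scale (SE 0.11, adjusted p = 0.0054 in the edgeR quasi-likelihood test with the replicate number in the model), and 34.7% to 47.5% of its mRNA level was left in the 4 pairs. Cas9 breaks need not lower an mRNA, so this checks the labels and not the share of edited alleles. By the study's methods, RNA was extracted once intracellular staining had shown that a set minimum of Mettl3 depletion was reached. Of all tested genes, 351 (2.35%) were higher and 208 (1.39%) lower in Mettl3-RNP cells at an adjusted p of 0.05 or less. Summed mast cell markers ran from 48867 to 66441 CPM (counts per 1000000 of the TMM-scaled library) in Mettl3-RNP and from 53001 to 72161 in Pulsed libraries. Their sum was lower in the Mettl3-RNP library of each pair. At most 0.398 CPM came from 9 neutrophil markers.

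Of the 33 tested p53 genes, Gdf15 alone passed an adjusted p of 0.05, and it also passed a fold change of 1.5. One member of 33 is 3.03%, beside 2.35% of all tested genes called higher. With the fold limit, 1 of 33 was higher beside 1.24% of all tested genes, and no member was lower. The canonical readouts Cdkn1a, Mdm2 and Ccng1 did not pass, with log2 fold changes of -0.08, 0.17 and -0.04. The median log2 fold change of the 33 genes was 0.11 against -0.001 for all tested genes, and 24 of the 33 (72.7%) were above 0 against 49.8% of all tested genes. In single pairs the members' median difference was 0.22, 0.06, 0.18 and -0.03 for replicates 1 to 4, so replicate 4 did not share the sign of the others. Without replicate 3, whose levels stood apart for many genes, the median was 0.08 and 3 of the 33 genes passed (Sertad3, Eda2r and Gdf15), beside 2.57% of all genes tested without it. Without replicate 2 the median was 0.04 and none of the genes passed in edgeR, beside 0.174% of all genes then tested, and 7 had an unadjusted p under 0.05, beside 15% of them.

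**Figure D1:**
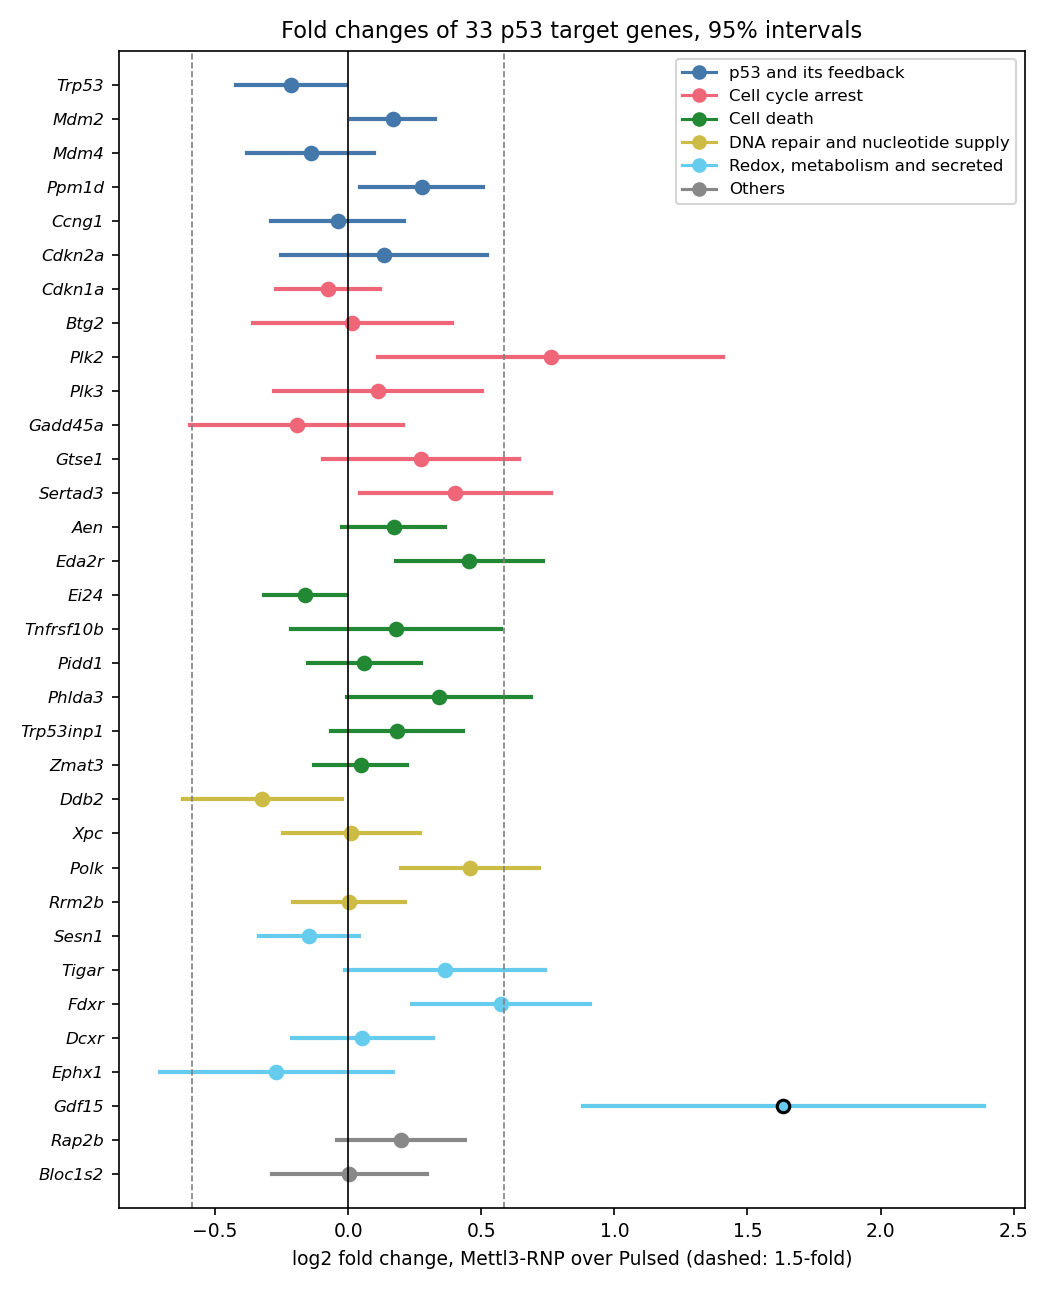
Log2 fold change of Mettl3-RNP over Pulsed cells (horizontal axis) for each of the 33 tested p53 genes, with 95% intervals as bars, colours for roles and dashed lines at a fold change of 1.5. Gdf15, ringed in black, is the gene with an adjusted p of 0.05 or less, and the upper end of 24 of the 33 intervals lies below 1.5-fold.

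The intervals show what sizes the data leave room for. For 24 of the 33 genes the upper end of the 95% interval stayed below a 1.5-fold rise, and for 21 the whole interval lay within 1.5-fold in either direction. Only Gdf15 and Plk2 had intervals that reached a 2-fold rise. The standard errors of the log2 fold changes ran from 0.07 to 0.33 with a median of 0.11. In bulk RNA, fewer cells that express a gene and less RNA per cell cannot be told apart, and a strong response in a small part of the culture would look like a weak one in all of it.

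Gdf15 encodes a secreted protein of the TGF-beta family that many stressed cells release, and it lies at chr8:71082038-71091537 on the minus strand. It stood at 13.3, 26.5, 2.74 and 16.8 CPM in Mettl3-RNP replicates 1 to 4 and at 8.33, 4.75, 1.52 and 3.31 CPM in the Pulsed replicates of the same numbers. Every RNP library was above its own partner, but the groups overlapped, because replicate 3 was lowest in both and its RNP library lay below 3 of the 4 Pulsed libraries. The within-pair log2 differences were 0.67, 2.47, 0.83 and 2.32, so replicates 2 and 4 had the larger differences. The fitted rise was 1.63 on the log2 scale (SE 0.33, 95% interval 0.88 to 2.39, adjusted p = 0.037), or 3.10-fold with an interval of 1.84 to 5.23. Without replicate 2 the estimate was 1.29 (SE 0.32, adjusted p = 0.15 in edgeR), and calls over all genes numbered 26 there against 559 with all pairs, while without replicate 1, 3 or 4 the gene still passed (adjusted p from 0.015 to 0.045). Without the replicate number in the model the log2 fold change was 1.73, with a larger SE of 0.67 and an adjusted p of 0.999.

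**Figure D2:**
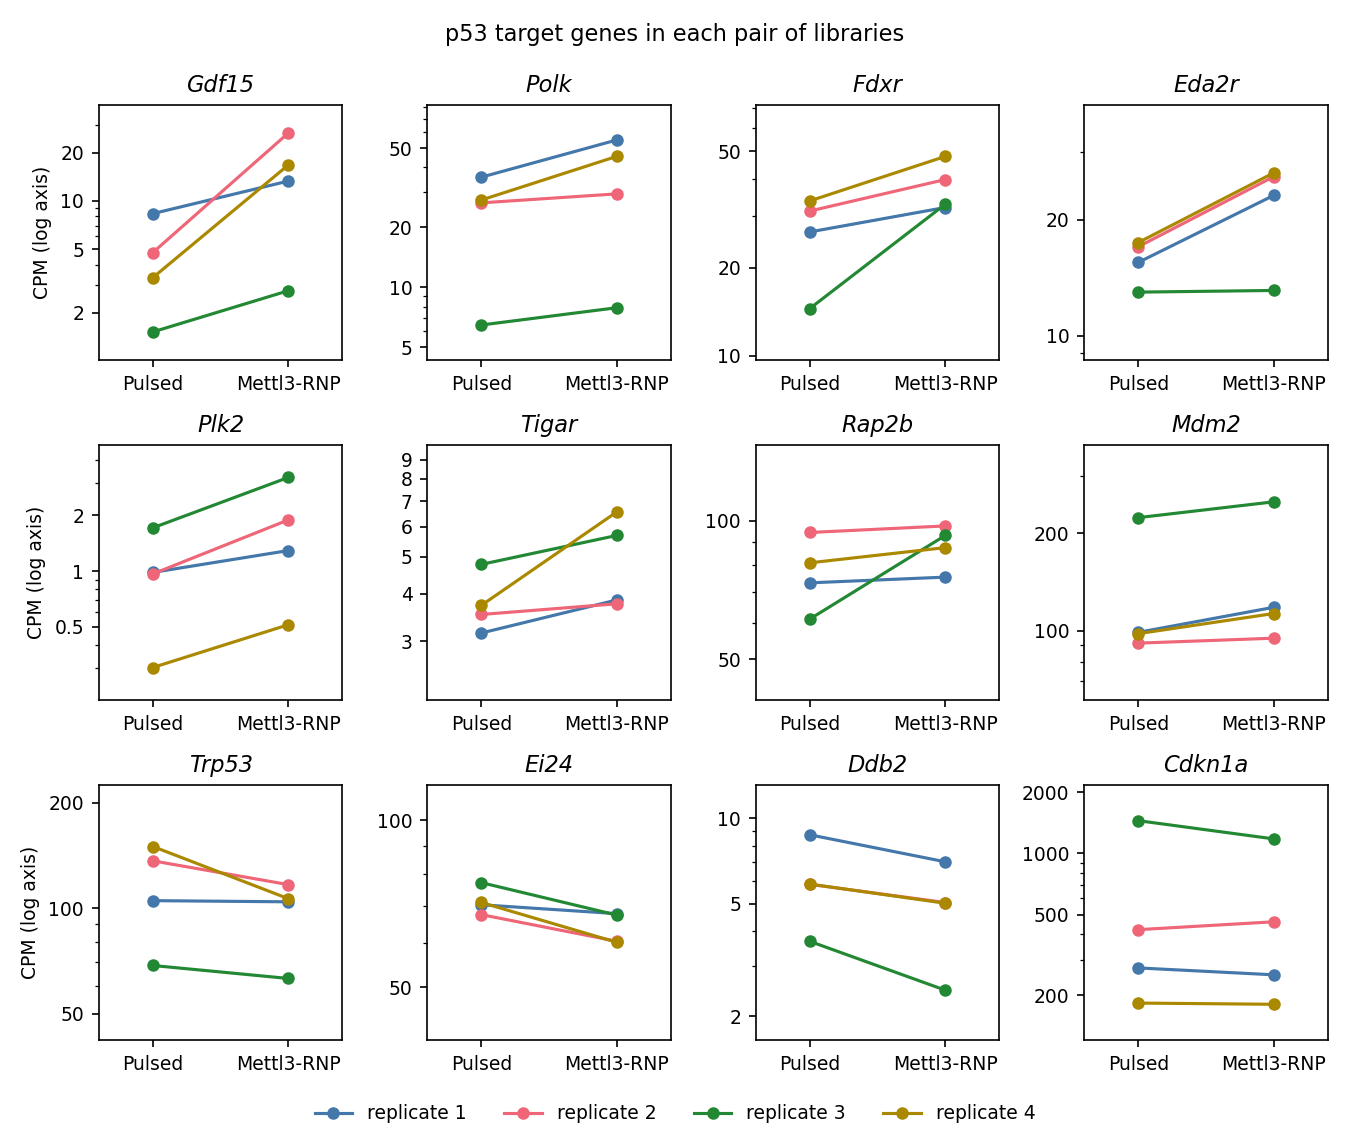
Level in CPM on a log axis in each library for 12 p53 genes, with a line joining the Pulsed and Mettl3-RNP libraries of a replicate number. Lines for Gdf15, Polk, Fdxr, Eda2r, Plk2, Tigar, Rap2b and Mdm2 slope upward in all 4 pairs and those for Trp53, Ei24 and Ddb2 downward, while Cdkn1a spans 181 to 1448 CPM between replicates with little slope.

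Of the 33 genes, 8 (24.2%) were higher in 4 of 4 pairs, beside 15.7% of all tested genes. They were Mdm2, Plk2, Eda2r, Polk, Tigar, Fdxr, Gdf15 and Rap2b. A further 3 (9.09%), Trp53, Ei24 and Ddb2, were lower in 4 of 4 pairs, beside 16% of all tested genes. At an unadjusted p under 0.05, 8 genes were higher (24.2%, beside 11.8% of all tested genes) and 3 were lower (9.09%, beside 10.7%). With 4 pairs, an exact sign-flip permutation test cannot go below a two-sided p of 0.125, so the 4 of 4 counts are a description.

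Of the 6 genes of p53 and its feedback loop none passed the threshold, 3 lay above 0, and the median log2 fold change was 0.05. By DESeq2 and limma-voom, which called 11.7% and 4.3% of all genes for which they gave an adjusted p, none of the 6 passed either. In edgeR 3 of the 6 had an unadjusted p under 0.05, beside 22.5% of all tested genes. Of these, Mdm2 and Ppm1d were higher and Trp53 was lower. Trp53, which encodes p53, lies at chr11:69469669-69482701 and measured 104, 117, 63.0 and 106 CPM in Mettl3-RNP replicates 1 to 4 against 105, 137, 68.6 and 150 CPM in Pulsed cells. The pairs differed by as little as -0.01 in replicate 1 and by as much as -0.49 in replicate 4, and the groups overlapped. The log2 fold change was -0.21 (SE 0.09, adjusted p = 0.21).

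Mdm2, the ligase that degrades p53 and is itself a target, lies at chr10:117524780-117546730. It measured 118, 94.7, 250.1 and 113 CPM in Mettl3-RNP cells and 98.7, 91.4, 223 and 97.8 CPM in Pulsed cells. All 4 pairs pointed upward, but the step from the other replicates to replicate 3 was several times larger than the step between groups in any pair. Its log2 fold change of 0.17 (SE 0.07, adjusted p = 0.19, edgeR) had an interval from 0.01 to 0.33, which ends at 1.25-fold. Ppm1d, the phosphatase that switches p53 signalling off, had a log2 fold change of 0.28 (adjusted p = 0.15) and was higher in 3 pairs, with 22.5 to 33.2 CPM in Mettl3-RNP and 23.2 to 25.04 CPM in Pulsed libraries. Mdm4, a partner of Mdm2 that masks p53, stood at -0.14 (adjusted p = 0.48). Ccng1, the cyclin G1 gene with both sites shown above, stood at -0.04 with an interval from -0.29 to 0.21. Cdkn2a, the locus of Ink4a and of Arf, the inhibitor of Mdm2, stood at 0.14 (adjusted p = 0.69), and counts per gene do not separate its products.

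Among the genes of cell cycle arrest, the largest fold change was that of Plk2, a polo-like kinase, which was also among the lowest in level. Of the 8 genes, 7 were tested, 5 lay above 0, the median was 0.11 and none passed in edgeR, DESeq2 or limma-voom. At an unadjusted p under 0.05 in edgeR there were 2, beside 22.5% of all tested genes. Cdkn1a encodes p21, the inhibitor of cyclin-dependent kinases through which p53 stops the cycle, and it lies at chr17:29309936-29319701. It measured 252, 460, 1178 and 181 CPM in Mettl3-RNP replicates 1 to 4 and 273, 421, 1448 and 183 CPM in Pulsed replicates. The RNP library was higher in replicate 2 alone, and the groups overlapped over nearly their whole range. The log2 fold change was -0.08 (SE 0.08, adjusted p = 0.66, edgeR), and the 95% interval ran from 0.83-fold to 1.09-fold.

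Plk2 measured 1.29, 1.89, 3.21 and 0.513 CPM in Mettl3-RNP cells and 0.984, 0.966, 1.72 and 0.301 CPM in Pulsed cells. All 4 pairs were higher, at a low level, and the log2 fold change of 0.76 (SE 0.28) had an adjusted p of 0.16 in edgeR. Plk3, the related kinase, gave 0.11 (adjusted p = 0.75), and its sign differed between pairs. Btg2, which slows the cycle and shortens mRNA tails, gave 0.02 (adjusted p = 0.97). Gtse1, a microtubule protein that carries p53 out of the nucleus, gave 0.27 (adjusted p = 0.36).
Sertad3, a transcription cofactor, was higher in 3 of 4 pairs with 0.40 (SE 0.15, adjusted p = 0.18), and without replicate 3, where it was lower, it passed with 0.60 (adjusted p = 0.037), while the adjusted p was 0.37, 0.49 and 0.43 without replicates 1, 2 and 4. Gadd45a, a stress protein that binds the replication clamp, gave -0.19 (adjusted p = 0.57). Ptpn14, a phosphatase of the Hippo pathway, was not tested, with 1 to 14 counts in each library of both groups.

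The 8 genes of cell death were mostly slightly above 0, 7 of them, with a median of 0.18 and none past the threshold in edgeR. DESeq2 called 1 of the 8, Eda2r, and limma-voom none. In edgeR 2 had an unadjusted p under 0.05, beside 22.5% of all tested genes. Eda2r, a receptor of the TNF receptor family, lies on chrX:96320270-96420847 and measured 23.1, 25.9, 13.1 and 26.4 CPM in Mettl3-RNP cells against 15.5, 17.0, 12.98 and 17.4 CPM in Pulsed cells. In replicates 1, 2 and 4 the RNP library was above its partner by 0.58, 0.60 and 0.60 on the log2 scale, while the difference in replicate 3 was 0.01. The log2 fold change was 0.45 (SE 0.12, adjusted p = 0.076), and it was 0.59 (adjusted p = 0.029) without replicate 3, while the adjusted p was 0.24, 0.28 and 0.22 without replicates 1, 2 and 4. It passed in 4 of 13 alternatives, with adjusted p from 0.0069 to 0.999. Ei24, a membrane protein of the endoplasmic reticulum, was the steadiest of the genes across libraries, at 67.9, 60.6, 67.5 and 60.3 CPM in Mettl3-RNP and 70.4, 67.6, 77.2 and 71.1 CPM in Pulsed cells. All pairs were lower and the groups touched only at their edges, with a log2 fold change of -0.16 (SE 0.07, adjusted p = 0.21).

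Of the other death genes, Phlda3, a repressor of Akt, had the largest estimate, 0.34 (adjusted p = 0.23). Trp53inp1, a nuclear cofactor of p53, gave 0.18 and Aen, an exonuclease that digests DNA in dying cells, gave 0.17 (adjusted p = 0.36 and 0.27). Tnfrsf10b, the receptor for the death ligand TRAIL, gave 0.18 with an interval from -0.22 to 0.58. Zmat3, an RNA-binding zinc finger protein and the carrier of the exact p53 site, gave 0.05 with an interval that ended at 1.17-fold. Pidd1, the scaffold that activates caspase-2, gave 0.06 (adjusted p = 0.75).

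In DNA repair and nucleotide supply, Polk was higher and Ddb2 lower in every pair, and neither passed the threshold in edgeR. DESeq2 called 1 of the 4, Polk, limma-voom none, and the median was 0.01. Polk, a polymerase that copies past damaged bases, lies at chr13:96617196-96679087 and measured 54.9, 29.4, 7.89 and 45.4 CPM in Mettl3-RNP cells against 35.7, 26.5, 6.46 and 27.4 CPM in Pulsed cells. The pairs all pointed upward, although replicate 3 was several times below the others in both groups. Its log2 fold change was 0.46 (SE 0.11, interval 0.20 to 0.72, adjusted p = 0.067), the closest of the genes that missed the threshold. It passed in 5 of 13 alternatives, with adjusted p from 0.0055 to 0.999, and from 0.073 to 0.29 when a replicate was left out.
Ddb2, which recognises ultraviolet lesions, measured 7.03, 5.05, 2.48 and 5.02 CPM against 8.75, 5.85, 3.68 and 5.86 CPM in Pulsed cells, lower in each pair with overlapping groups. Its log2 fold change was -0.32 (SE 0.13, adjusted p = 0.19). Ddb2 shares 1617 exon bases with Acp2 on the opposite strand, which held 971 to 1871 counts against 74 to 311 for Ddb2, and without a stated strand setting reads of both cannot be told apart. Xpc, another sensor of lesions, and Rrm2b, the ribonucleotide reductase subunit that p53 induces, were at 0.01 and 0.004 (adjusted p = 0.96 and 0.99).

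In redox, metabolism and secretion, Gdf15 had the largest estimate and Fdxr the next. Of the 6 genes, 4 lay above 0, and 1 passed in edgeR and limma-voom and 2 in DESeq2. Fdxr, which passes electrons to mitochondrial ferredoxin, lies at chr11:115158844-115168006. It measured 32.1, 40.0, 32.9 and 47.9 CPM in Mettl3-RNP cells against 26.5, 31.2, 14.5 and 33.8 CPM in Pulsed cells. The RNP library was higher in every pair, most so in replicate 3, where the difference was 1.18, and the groups overlapped. The log2 fold change was 0.57 (SE 0.14, interval 0.24 to 0.91, adjusted p = 0.070). It passed in 4 of 13 alternatives, with adjusted p from 7.1e-04 to 0.999, and from 0.063 to 0.17 when a replicate was left out.

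Tigar, a phosphatase that steers sugar away from glycolysis, measured 3.85, 3.76, 5.69 and 6.56 CPM against 3.15, 3.52, 4.77 and 3.73 CPM in Pulsed cells. The difference was positive in every pair and largest in replicate 4, and the groups overlapped, with a log2 fold change of 0.36 (SE 0.16, adjusted p = 0.23). Sesn1, a sestrin that restrains mTORC1, stood at -0.15 (adjusted p = 0.34), and Ephx1, an epoxide hydrolase, at -0.27 (adjusted p = 0.46). Dcxr, a carbonyl reductase, stood at 0.05 (adjusted p = 0.83).
Outside these roles, Rap2b, a small GTPase, measured 75.4, 97.4, 92.9 and 87.4 CPM in Mettl3-RNP and 73.3, 94.3, 61.1 and 81.0 CPM in Pulsed cells. It was higher in each pair by 0.04, 0.05, 0.60 and 0.11, with replicate 3 far above the rest, and its log2 fold change was 0.20 (SE 0.10, adjusted p = 0.31). Bloc1s2, a subunit of a complex for lysosome-related organelles, stood at 0.004 (adjusted p = 0.99).

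The 6 genes with a p53 site near their start had a median log2 fold change of 0.03, ranging from -0.08 to 0.36, and none passed. The 27 tested genes without one had a median of 0.14 and included Gdf15. The difference was not tested, and the search covers 1 form of site near 1 start.

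More of the variance of these genes lay between replicate numbers than between groups. Between replicate numbers lay a median of 84.5% of the variance of log2 CPM over the 8 libraries, against 4.66% between groups. The medians over all tested genes were 78.3% and 5.68%, and replicate numbers have 3 degrees of freedom where the groups have 1. More variance lay between groups than between numbers for 3 genes, Ppm1d, Gadd45a and Ei24. For Cdkn1a the share between replicate numbers was 99.4%, and for Gdf15 it was 54.9%, with 35.4% between groups.

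**Figure D3:**
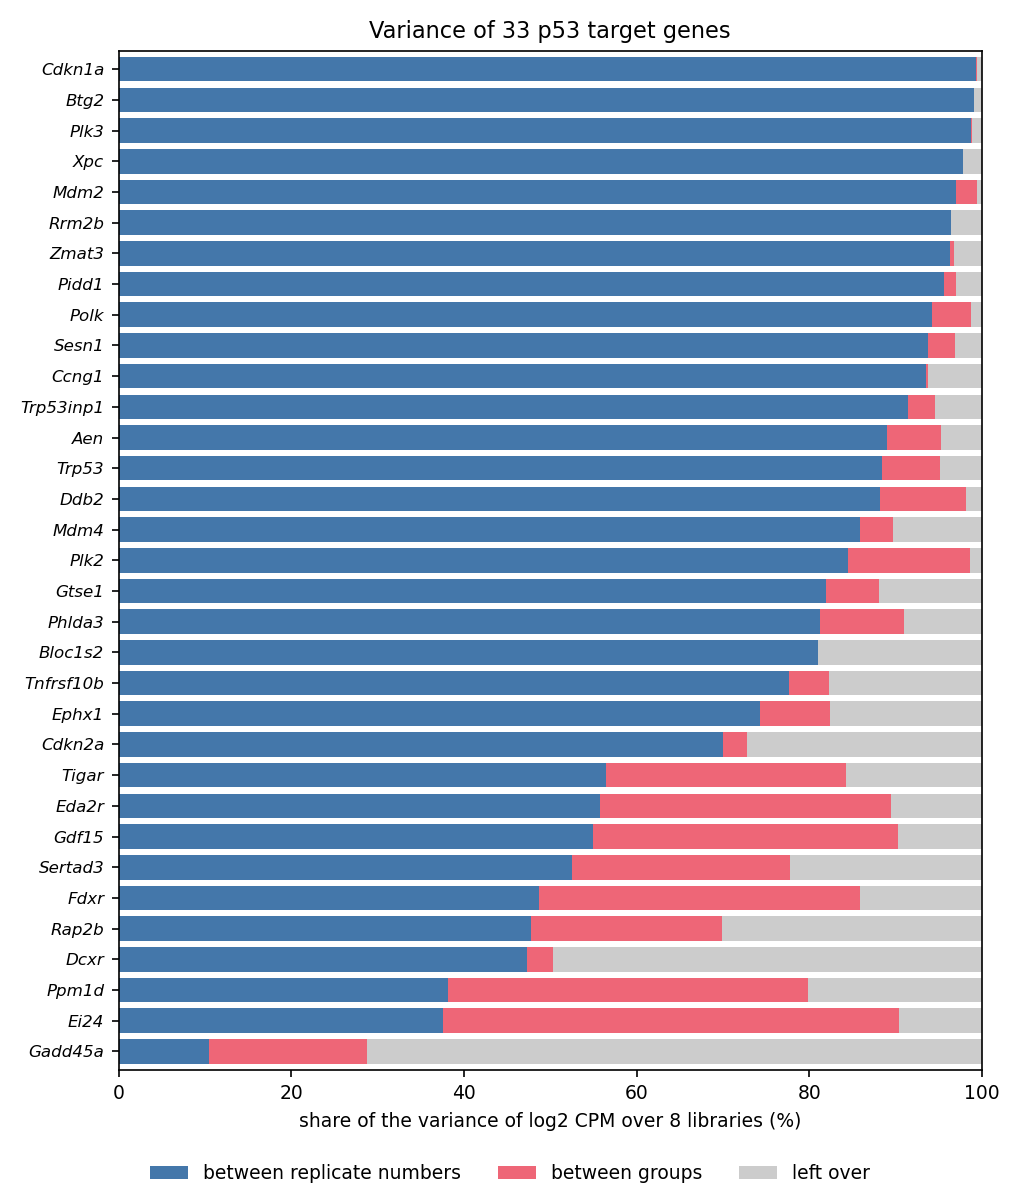
Share of the variance of log2 CPM over 8 libraries that lies between replicate numbers, between groups or in neither, as stacked bars in percent for 33 p53 genes. Bars between replicate numbers fill 99.4% for Cdkn1a at the top and 10.5% for Gadd45a at the bottom.

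Over the 8 libraries Btg2 spanned 78.1-fold, from 6.98 CPM in Mettl3-RNP replicate 4 to 546 CPM in Mettl3-RNP replicate 3. Plk3 spanned 35.7-fold, Gdf15 17.5-fold, Plk2 10.7-fold, Polk 8.49-fold, Cdkn1a 8.01-fold and Xpc 5.29-fold. These 7 of the 33 genes (21.2%) spanned over 5-fold, beside 21.2% of all tested genes, and Ei24 spanned least with 1.28-fold.

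Replicate 3 held the highest library of both groups for 7 of the 33 genes, beside 26.9% of all tested genes, and the lowest of both groups for 12 of the 33, beside 25.8%. Immediate early genes, which respond within minutes to outside signals, were highest in replicate 3 in both groups for 12 of 12. Their summed level was 3257, 6659, 25486 and 771 CPM in Mettl3-RNP replicates 1 to 4 and 3816, 4288, 22004 and 602 CPM in Pulsed replicates. Cdkn1a, Btg2 and Plk3 ordered the 4 replicates just as this sum did, in both groups, as did 2.32% of all tested genes. Phlda3 had the opposite order in both groups, as did 2.26% of all tested genes. The part of these signals in the levels of the p53 genes was not tested. The summed level of the immediate early genes ordered the replicates alike in both groups. Within pairs this sum was higher in Mettl3-RNP for replicates 2, 3 and 4 and lower for replicate 1.

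**Figure D4:**
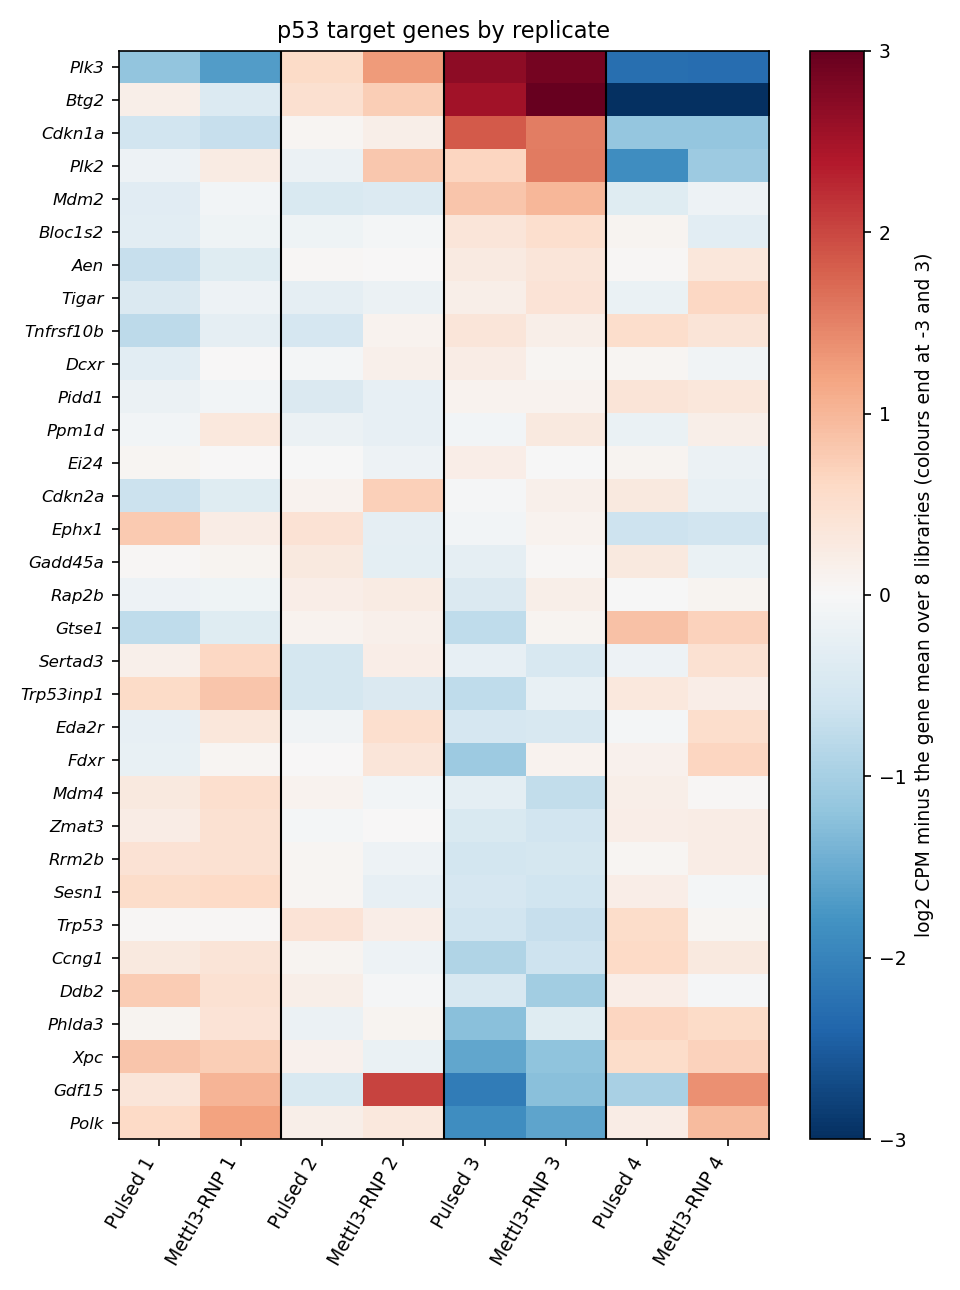
Colour map of log2 CPM minus each gene's mean over the 8 libraries for 33 p53 genes, with columns grouped by replicate number and rows ordered by the level in replicate 3. Plk3, Btg2 and Cdkn1a are high in both libraries of replicate 3 and low in both of replicate 4, and Polk and Xpc show the reverse in replicate 3.

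Per length of exon, on a scale of counts per kb scaled to 1000000 per library, Cdkn1a was the most abundant of the 34 genes with a mean of 339. Plk3 (176), Ccng1 (156), Btg2 (95.1) and Mdm2 (67.9) followed, with replicate 3 the highest of both groups for Cdkn1a, Plk3, Btg2 and Mdm2. Over single libraries Cdkn1a ran from 123 to 821, Ccng1 from 67.1 to 227 and Btg2 from 4.64 to 312, so the order of these 5 is not fixed beyond their spread. Gdf15 ranked 22nd with a mean of 17.5, and Plk2 (1.02) and Ptpn14 (0.05) were lowest.
On the opposite strand, 16 of the 34 genes share exon bases with another gene, 12 of them with one that had counts in every library. For Cdkn1a the partner is Dino, with 29 to 118 counts against 6344 to 58233 for Cdkn1a. For Trp53 it is Wrap53, with 374 to 697 counts against 1883 to 5480. Gadd45a, with 210 to 325 counts, shares 990 bases with a noncoding gene of 90 to 220 counts. Polk, with 236 to 2039 counts, shares 94 bases with Cert1, which had 1608 to 2628. Ephx1, with 98 to 254 counts, shares 72 bases with Tmem63a, which had 1042 to 2463.

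No gene of 3 further lists around p53 and DNA breaks passed in edgeR. Of 30 further p53 pathway genes, among them Bax, Bbc3, Pmaip1 and Fas of the cell death branch, 27 were tested, their median log2 fold change was -0.03 and none passed in edgeR, with 5 at an unadjusted p under 0.05 (22.5% of all tested genes had one) and 4 called by DESeq2. The 3 with an adjusted p under 0.1, named after their values were seen, were Abcb1a, a drug efflux pump (-0.57, adjusted p = 0.066, lower in 4 of 4 pairs), Fas, the death receptor (0.81, adjusted p = 0.069, higher in 4 of 4 pairs), and Ak1, an adenylate kinase (0.92, adjusted p = 0.085, higher in 3 of 4 pairs). Of 17 genes that sense and signal breaks, such as Atm and Chek2, none passed (median -0.05, 5 at an unadjusted p under 0.05, 1 by DESeq2). Of 14 genes of end joining and break repair none passed (median 0.06, 10 above 0, 2 at an unadjusted p under 0.05, 1 by DESeq2). Xrcc5 (-0.42, adjusted p = 0.069 in edgeR, lower in 4 of 4 pairs) had an adjusted p under 0.1 and was named after its values were seen. Limma-voom called none in these 3 lists.

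Cell cycle genes that p21 is known to shut down through the DREAM complex were read beside Cdkn1a. All 20 were tested and 16 were above 0, beside 49.8% of all tested genes, with a median log2 fold change of 0.13. None passed in edgeR, 2 in DESeq2 and 1 in limma-voom. In edgeR 3 had an unadjusted p under 0.05, beside 22.5% of all tested genes. Their summed level was 702, 1585, 1837 and 2061 CPM in Mettl3-RNP replicates 1 to 4 against 627, 1389, 1098 and 2009 CPM in Pulsed cells. Without Mki67, at 788 against 376 CPM in replicate 3, the sum was 471, 985, 1049 and 1211 CPM against 440.4, 941, 722 and 1354 CPM, so it was higher in 3 of 4 pairs. In edgeR, Mki67 (0.54, adjusted p = 0.058), Foxm1 (0.40, adjusted p = 0.070), Cenpf (0.34, adjusted p = 0.16) and Birc5 (0.34, adjusted p = 0.29) were higher in 4 of 4 pairs. E2f1 (-0.08, adjusted p = 0.58) was lower in 4 of 4 pairs. These genes were named, and Mki67 was chosen to be left out, after their values were seen. Of the 13 tested genes within 1 Mb of Mettl3, on the chromosome of the cut, none passed (median -0.09, 1 at an unadjusted p under 0.05, none by DESeq2 or limma-voom).

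Gdf15 also answers to ATF4, the factor of the amino acid and unfolded protein responses, so those genes were read beside it. Of 13 tested ATF4 genes, 5 were above 0 and the median was -0.11. In edgeR 1 passed, beside 3.74% of all tested genes, and 4 had an unadjusted p under 0.05, beside 22.5%. DESeq2 called 2 and limma-voom 1. The gene that passed in edgeR was Pck2, a mitochondrial enzyme of gluconeogenesis. It measured 92.1, 82.9, 65.8 and 98.5 CPM in Mettl3-RNP against 58.0, 50.4, 23.4 and 69.9 CPM in Pulsed cells. Its log2 fold change was 0.83 (SE 0.15, adjusted p = 0.031), and the groups overlapped through replicate 3 of Mettl3-RNP. Phgdh (-0.48, adjusted p = 0.087, lower in 4 of 4 pairs) and Cebpb (0.67, adjusted p = 0.095, higher in 3 of 4 pairs) were named after their values were seen. Of the 12 immediate early genes, 11 were above 0 (median 0.30), none passed in edgeR or limma-voom, 3 had an unadjusted p under 0.05 and DESeq2 called 1.

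Of macrophage markers 3 of 9 were tested, 2 of them below 0, and Adgre1 fell by 1.13 (SE 0.24, adjusted p = 0.044), with the 9 summing to 4.39 to 10.5 CPM in Mettl3-RNP and 6.38 to 11.0 CPM in Pulsed libraries. Of 5 basophil markers, all tested, 4 were below 0 with a median of -0.60. Il18rap fell by 0.79 (adjusted p = 0.032) and Ifitm1 by 0.60 (adjusted p = 0.047), Cd200r3 was the 1 above 0 (0.25, adjusted p = 0.15, higher in 4 of 4 pairs), and the sum of all 5 was 1795 to 2420 against 2244 to 3322 CPM. Ifitm1 (1004 to 2655 CPM over the 8 libraries) and Cd200r3 (499 to 819 CPM) made up nearly all of that sum, while the defining basophil proteases Mcpt8 and Prss34 reached at most 4.03 and 1.74 CPM. Of erythroid markers, 3 of 6 were tested, 2 of them below 0, and Car2 fell by 0.95 (adjusted p = 0.027), within sums of 9.13 to 14.8 against 15.3 to 28.9 CPM. Of 13 tested mast cell markers, 8 were above 0 with a median of 0.08, and the 1 that passed, Cpa3, a granule protease, fell by 0.37 (adjusted p = 0.033). Mitf (0.30, adjusted p = 0.071) and Il1rl1 (0.24, adjusted p = 0.12) were higher, and Cpa3 and Fcer1g (-0.17, adjusted p = 0.20) lower, in 4 of 4 pairs. Cd200r3, Mitf, Il1rl1 and Fcer1g were named after their values were seen. The neutrophil markers S100a8, S100a9, Elane and Camp, the T cell markers Cd3d and Cd8a and the B cell marker Ms4a1 were at 0 in every library. T cell markers summed to at most 2.90 CPM and B cell markers to at most 0.335 CPM. The part of these cells in the levels of Gdf15 and the other p53 genes was not tested.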

How the data were processed

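Poly-A RNA of 8 cultures was sequenced in read pairs. The authors aligned reads with HISAT2 2.2.1 to GRCm39 (Ensembl release 107) and counted them per gene with featureCounts 2.0.1, after FastQC 0.11.9, per the submitters' processing notes and the study's methods. The deposited values are raw whole-number counts of each gene, which carry neither a normalization nor the batch correction that the methods describe. The strand setting is not given in the sources used here. GENCODE mouse release 39 named 56017 of 56748 IDs (98.7%), and unnamed IDs held at most 0.113% of a library.

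Genes were kept by filterByExpr, scaled by TMM and tested with the quasi-likelihood test of edgeR 4.0.16 (R 4.3.3) with the replicate number as a blocking term and Benjamini-Hochberg adjustment over all 14942 tested genes. The test was checked on simulated data. CPM used TMM library sizes, and paired log2 differences used a prior count of 2. limma 3.58.1 and DESeq2 1.42.0 served as alternatives, beside other scalings, filters, models and leaving out each replicate. Standard errors cover the spread between pairs, and counting intervals were not used.

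Same-numbered libraries deviated together from their group means over the 11985 genes averaging 1 CPM or more (correlations of 0.825, 0.489, 0.879 and 0.765 for numbers 1 to 4, at most 0.183 for different numbers), and the series text names 4 mice for 8 samples. Over all tested genes the correlation for number 2 was 0.0738, below those of Mettl3-RNP 2 with Pulsed 3 (0.249) and Pulsed 1 (0.105), so there the pairing of number 2 rests on the series text. Libraries of a group differed beyond sampling noise, with 58.4 as the lowest chi-square divided by its degrees of freedom. The methods call the 4 replicates independent.

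All 34 members are named. Values in every library are given for members with an adjusted p of 0.05 or less, for those with 4 of 4 pairs on one side, and for Trp53, Mdm2 and Cdkn1a. Genes of other lists have a fold change where their adjusted p was 0.05 or less, beside a few named after their values were seen, as the text marks. The members and lists were chosen with earlier results of these data known. The p53 site search in GRCm39 and the order of replicates by immediate early genes were added after values had been seen.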

Additional observations from a re-analysis of the deposited data

Results flagged for a closer look

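Of 68 groups of 4 libraries examined (each of the 34 p53 genes in each group of cells), 2 held a library far from the other 3 by Dixon's test. Chance alone flags about 1 in 20 such groups, 3.4 of 68. Both were Mdm2 in replicate 3, at 250.1 CPM in Mettl3-RNP cells, where the other 3 libraries had 94.7 to 118 CPM, and at 223.5 CPM in Pulsed cells, where the others had 91.4 to 98.7 CPM. Both libraries of the pair stood apart alike, with a log2 difference of 0.16 between them. What set the level of Mdm2 in replicate 3 was not tested.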

How the results depend on the processing

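The median log2 fold change of the p53 genes kept its sign in every alternative, from 0.04 to 0.14 when a replicate was left out. Without the replicate block no gene passed an adjusted p of 0.05 (edgeR, 579 at an unadjusted p under 0.05), so 0 p53 genes passed, with or without the 1.5-fold limit. Genes past an adjusted p of 0.05 numbered 1449 with DESeq2, 4564 with removeBatchEffect before limma-trend (which counts the removed block's degrees of freedom as free), 993 with every gene of at least 1 count, 959 with at least 10 counts in every library and 26 to 383 without a replicate, 26 being without replicate 2. With the fold limit they numbered 505 with DESeq2, 973 with removeBatchEffect, 579 with every gene of at least 1 count and 26 to 331 without a replicate. For the p53 genes, the share of all genes past the threshold in the same setting follows each count as a percentage. The 1 call (3.74%) became 2 with library size alone (3.98%) and 4 with DESeq2 (Eda2r, Polk, Fdxr, Gdf15, 11.7%). It became 12 with removeBatchEffect (30.5%), 4 with every gene of at least 1 count (2.95%) and 3 with at least 10 counts (7.67%). Without a replicate it was 0 to 3, with 0 being without replicate 2 (0.174%) and 3 without replicate 3 (2.57%). With the fold limit it became 2 with removeBatchEffect, 2 with every gene of at least 1 count and 0 to 3 without a replicate. The newer spread estimate of edgeR, chosen after seeing the data, left 1 call, and the planned legacy estimate is the default and equals the reported test. Signs turned, with none called, when a replicate was left out for Ccng1 (-0.15 to 0.062), Cdkn2a (-0.031 to 0.36), Btg2 (-0.15 to 0.19), Plk3 (-0.11 to 0.27), Zmat3 (-0.048 to 0.096), Xpc (-0.093 to 0.12), Rrm2b (-0.041 to 0.070), Dcxr (-0.067 to 0.14) and Bloc1s2 (-0.098 to 0.15), and for Xpc without the block (-0.026) and with limma-voom (-0.020). The causes were not tested. With 4 pairs, small differences could not be told from the spread between pairs.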
